A study of Rattus norvegicus with 4 samples.

Results

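The untreated state of the rat cochlear lateral wall was described from the 2 arrays of saline-infused ears, of 4 arrays in the series. One array was taken 1 day and the other 3 days after the infusion, and each is 1 array with no replicate, so no test, SD or p-value between groups can be given. In each array the probe sets that carry a single gene symbol were ranked by their signal, with controls left out. The 300 genes with the highest signals were then described among 10411 named genes on the day 1 array and 5667 on the day 3 array. Both groups were female Sprague-Dawley rats, an albino strain, of 180 to 210 g and 8 to 10 weeks of age. Under pentobarbital and lidocaine, the left round window niche received saline alone and a plug of gelatin, and the right cochlea was destroyed. The anaesthesia, the opened ear, the gelatin and the destroyed right cochlea are shared by all groups of the series, and the saline arrays show an operated ear, not an intact one. How many animals went into each array is not stated in the labels. One label field places the tissue in the upper basal turn, and another calls it the second turn with the stria vascularis left out.

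The lateral wall is made of the spiral ligament, whose fibrocytes lie in a collagen-rich matrix, and the stria vascularis, an epithelium of marginal, intermediate and basal cells that secretes potassium into the endolymph. Fibrocytes take up potassium through the sodium pump and the sodium-potassium-chloride cotransporter encoded by Slc12a2 and pass it on through gap junctions made of the connexins that Gjb2 and Gjb6 encode. Coch encodes cochlin, an abundant protein of the ligament's matrix, and Gjb2, Gjb6 and Coch are deafness genes in humans.

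The promoters of Coch, Gjb6 and Gjb2 are shown because these genes mark the ligament and the connexin genes are close relatives. The 100 bases before each annotated start are given from RefSeq, build GRCr8. Capitals mark the letters TTTATA, the other-strand reading of TATAAA, in Coch, and the longest run that the connexin promoters share. The windows are chr6:74766447-74766546 on the plus strand for Coch, and chr15:35410139-35410238 and chr15:35381954-35382053 on the minus strand for Gjb6 and Gjb2.
Coch: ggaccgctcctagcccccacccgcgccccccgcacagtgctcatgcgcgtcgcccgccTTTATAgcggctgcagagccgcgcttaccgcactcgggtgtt
Gjb6: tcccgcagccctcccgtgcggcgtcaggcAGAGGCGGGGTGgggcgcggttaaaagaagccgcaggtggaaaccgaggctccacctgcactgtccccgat
Gjb2: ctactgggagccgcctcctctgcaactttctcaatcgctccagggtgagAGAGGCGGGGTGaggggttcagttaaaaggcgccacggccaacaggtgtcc

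The run AGAGGCGGGGTG, of 12 bases, begins 71 bases before the Gjb6 start and 51 bases before that of Gjb2. On either strand it stood in 8 of 33465 promoter windows of 300 bases, or 0.0239%. It was singled out after the sequences were read. The table lists 2 starts for Gjb6, of which the first is shown, and Ppp1r1a and Slc4a11 had no entry.

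The marker genes of the tissue lay at the top of both arrays. Coch, on the day 3 array alone, had a signal of 6548, rank 2 of 5667. Slc12a2, on the day 1 array alone, had 4109, rank 12 of 10411. Gjb6 and Gjb2 were also on the day 1 array alone, with signals of 3139 at rank 20 and 1393 at rank 133. Ppp1r1a, which encodes an inhibitor of protein phosphatase, was on both designs, with 2937 at rank 22 on day 1 and 904 at rank 26 on day 3. All 5 markers are among the 300 highest genes wherever a probe set for them exists, but they were chosen with results of these arrays known and are a description. The 300 highest make up 2.88% of the named genes at day 1 and 5.29% at day 3.

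A rank here is an order of signals, not of transcript numbers, because each probe set hybridises with its own efficiency. On the day 1 array 1868 genes had several probe sets, and their log2 signals had an SD of 1.91 within a gene. On the day 3 array 1438 genes had several, with an SD of 1.75. The brightest and dimmest probe sets of such a gene stood 3.45-fold apart at the median on day 1 and 3.40-fold on day 3. Neighbouring ranks among the 300 highest therefore do not differ beyond this spread. On day 1 the whole span from rank 1 to rank 300 is 10.1-fold, and on day 3 it is 32.8-fold. Of the 300 highest, 69 genes on day 1 and 123 on day 3 had several probe sets. For 12 of the 69 and 17 of the 123 the next probe set also reached the signal of rank 300.

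The day 1 array held 15923 probe sets and the day 3 array 15333 of another design, on which 7612 probe sets have no gene symbol. Median signals over all probe sets were 44.9 and 18.7. The highest of 27 bacterial control probe sets, which have no target in rat RNA, reached 11.0 on day 1 and 10.4 on day 3. This level is called the background below, and 83.6% of named genes at day 1 and 77.6% at day 3 lay above it. The 300 highest genes carried 31.1% of the summed signal of named genes on day 1 and 39.4% on day 3. The controls for RNA integrity gave ratios of 3' to 5' signal of 2.69 and 3.22 for Actb, and of 1.34 and 1.26 for Gapdh.

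**Figure D1:**
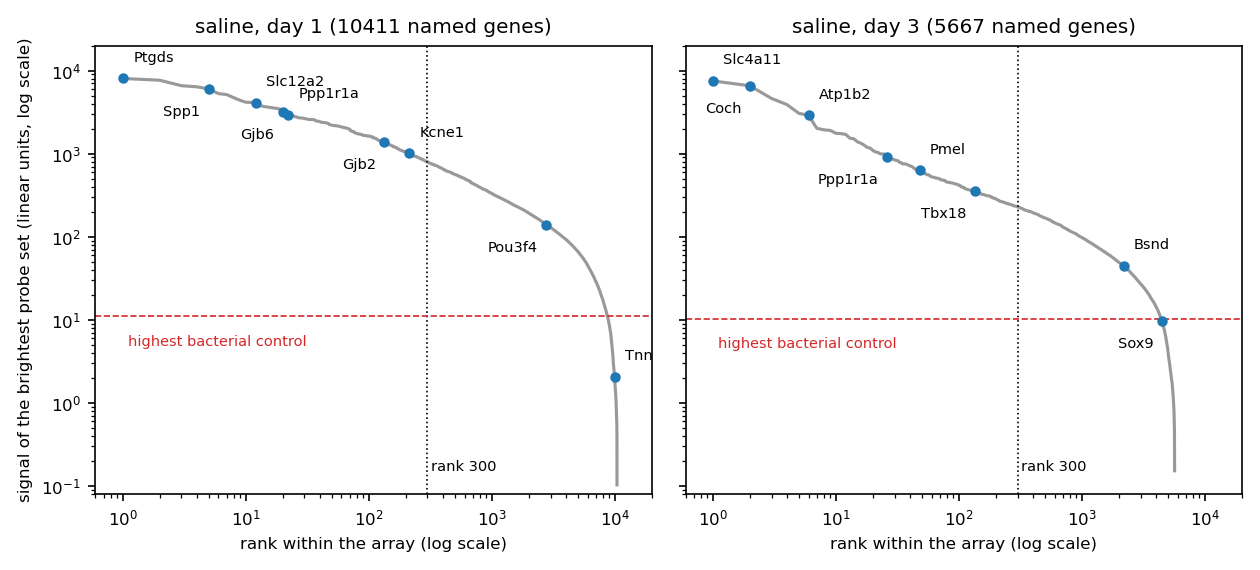
Signal of each named gene (brightest probe set, linear units on a log axis) against its rank (log axis) in the saline day 1 array with 10411 genes and the saline day 3 array with 5667. Blue points are example genes, the dotted line is rank 300 and the dashed line the highest bacterial control, at 11.0 and 10.4. The tissue markers Slc12a2, Gjb6, Gjb2, Coch and Ppp1r1a lie left of the dotted line.

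Genes of secreted proteins and of mitochondria opened the day 1 ranking. Ptgds, which encodes the prostaglandin D synthase that also binds lipophilic molecules, had the highest signal of the array at 8032. The mitochondrially encoded cytochrome oxidase genes, named COX2 and COX1 in the platform annotation, followed at 7639 in rank 2 and 6372 in rank 4. Between them stood Apod, a lipocalin that carries lipids, at 6569.

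Spp1, which encodes osteopontin, a secreted phosphoprotein of bone and other tissues, had 6002 in rank 5. S100b, a calcium-binding protein gene much used as a glial marker, had 5137 in rank 7. Clu, which encodes the secreted chaperone clusterin, had 4709, but its other probe set read 27.5. Apoe, an apolipoprotein gene, had 3587 in rank 16 by its brighter probe set and 1.00 by the other. The places of Clu and Apoe therefore rest on 1 probe set each.

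Dnase1, which encodes a secreted nuclease, had 4378 in rank 9. Hbb, which encodes beta-globin of red cells, had 3695 in rank 14. Its only probe set ends in _x_at or _s_at, so Hbb has no rank without such probe sets. Itm2b and App, genes of membrane proteins that are cut to release peptides, had 3542 and 3427, and their other probe sets were also high, at 2966 and 1784. Of the remaining genes down to rank 20, 5 encode ribosomal proteins (Rpl37a, Rps23, Rps29, Rpl7a and Rpl27a, at 5278 to 3492), and Eef1a1, the translation elongation factor gene, had 4155. The set thus mixes genes that nearly all cells use with genes of a few cell types.

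On the day 3 array a pair of ligament genes came first. Slc4a11, a transporter gene of the bicarbonate transporter family that is found in spiral ligament fibrocytes, had 7504, and Coch followed at 6548. Hhatl, a relative of the hedgehog acyltransferase gene, had 4616, C10h17orf67, an uncharacterised reading frame, 3893, and Aif1l, an actin-bundling protein gene, 3059. Atp1b2, a beta subunit of the sodium pump, had 2881 in rank 6. After it the signals dropped to 2018 for Arf1, a small GTPase gene of the Golgi, and 1933 for Cdc42, a small GTPase gene of cell polarity. The other probe set of Cdc42 read 128.

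Gas2, an actin-associated protein gene, had 1904, and Phyh, a peroxisomal enzyme gene of phytanic acid breakdown, 1758. Slc5a3, which encodes a sodium-coupled myo-inositol transporter, had 1536 by its brighter probe set and 14.6 by the other. Sorl1, a sorting receptor gene, had 1386 by its brighter probe set and 263 by the other. Col9a3, a chain of type IX collagen, had 1166 in rank 19. The other genes down to rank 20 were Nop10, Actr2, Morf4l1, Ap3d1, Gdi2, Ube2d3 and Jak1, at 1741 to 1092, which act in RNA modification, actin branching, chromatin, vesicle transport, ubiquitin transfer and cytokine signalling. The other probe set of Actr2 read 71.5, and Actr2 fell from percentile 99.8 to 75.6 without probe sets ending in _x_at or _s_at.

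A common set of 100 normalization probe sets is printed on both designs, and it supplied 57 of the 300 highest genes on day 3 but 5 on day 1. Arf1, Cdc42, Nop10, Ap3d1 and Gdi2 are among them at day 3. The median of all probe sets was lower on the day 3 design, as given above. At rank 300 the signal was 798 on day 1 (Rpl14) and 229 on day 3 (Vof16). Just inside that rank lay Gabarap at 800.3 and Mgp at 799.9 on day 1, and Sox4 at 229.3 and Uap1l1 at 229.2 on day 3. Just outside lay Srp14 at 796.8, Ctsa at 788.6 and Ndufb5 at 785.3, and on day 3 Cnnm3 at 228.7, Rab21 at 228.0 and Caprin1 at 227.7.

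By function, the day 1 list of highest genes was led by energy and protein synthesis. The 19 function lists and 14 cell type lists used here placed 169 of the 300 genes. Genes of oxidative phosphorylation held 39 places, or 13%, against 0.778% of all named genes, and cytosolic ribosomal protein genes held 36, or 12%, against 0.423%. Together these lists filled 25% of the 300. Of 44 ribosomal protein genes on the array 36 were among the 300 highest, and the median gene of that list lay at percentile 98.9, where 50 is the median of all genes.

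Within the respiratory chain, the complex V genes, which encode ATP synthase, were the most often among the 300, with 13 of 16. Complex IV had 9 of 17, complex III 4 of 8, complex II 2 of 4 and complex I 11 of 36. Cox8a, a subunit gene of complex IV, had 2678, and Atp5f1b, the catalytic beta subunit gene of ATP synthase, 2562. The succinate dehydrogenase genes of complex II, the enzyme blocked by 3-nitropropionic acid (3-NP), which was given on the other arrays of the series, lay between 756 and 1143. The day 3 design carries 6 genes of this list and 5 ribosomal protein genes, of which 1 and 0 were among its 300 highest, so the lists cannot be compared between days.

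Glycolysis genes lay high as well, with a median percentile of 94.7 and 5 of 16 among the 300. Aldoa, the aldolase gene, had 2886, the enolase gene Eno1 2692 and the lactate dehydrogenase gene Ldhb 2187. Of 17 tricarboxylic acid cycle genes 1 was among the 300, the malate dehydrogenase gene Mdh1 at 2116, and Pdha1 and Mdh2 followed at 722 and 608, but the list's median percentile was 91.8. On day 3 Pdk4, which encodes a kinase that turns pyruvate dehydrogenase off, had 483 in rank 72. The other glycolysis genes there, Pfkm and Hk1, had 15.4 and 10.5. The 3 cycle genes there were below background, at 4.62 for Idh1, 3.08 for Ogdh and 1.55 for Sucla2. On day 1 all 17 cycle genes were above background, and Sucla2 had 568 by a different probe set.

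Ion transport and gap junction genes held 10 places on day 1, or 3.33%, against 0.384% of all named genes. After Slc12a2 and Gjb6 came the sodium pump beta subunit genes Atp1b3 at 2061 and Atp1b1 at 2052. Car14 and Car3, carbonic anhydrase genes, had 1027 and 889, Kcnj16, a potassium channel gene, 875, and Fxyd6, a regulator of the sodium pump, 934. These last 4 were named after their values were seen. The list's median percentile was 61.8. Gja1, another connexin gene, had 102, the bicarbonate transporter gene Slc4a4 26.5 and the water channel gene Aqp5 1.38, below background. The list had 3 of 8 genes on day 3 among the 300, namely Slc4a11, Atp1b2 and the calcium pump gene Atp2b1 at 420.

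**Figure D2:**
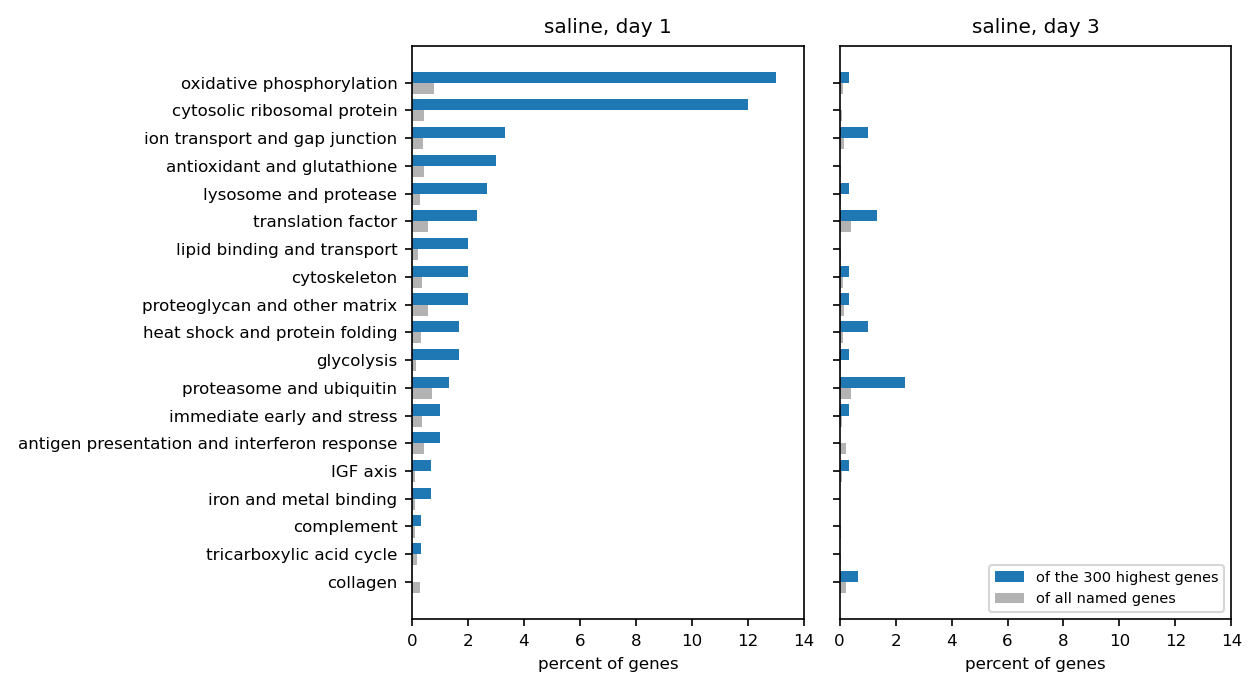
Percent of the 300 highest genes (blue) and of all named genes (grey) that belong to each function list, in the saline day 1 and day 3 arrays. On day 1 oxidative phosphorylation and ribosomal protein genes stand apart at 13% and 12%, and on day 3 the longest bar is that of proteasome and ubiquitin genes at 2.33%, of whose 7 genes 4 come from the normalization probe sets.

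Protein handling genes were spread over both rankings. In this and all later lists, a count among the 300 stands beside 2.88% of all named genes on day 1 and 5.29% on day 3. Proteasome and ubiquitin genes had 4 of 75 among the 300 on day 1, with the ubiquitin ligase subunit gene Skp1 at 2584 and the proteasome genes Psma6 at 1080 and Psmb5 at 820. They had 7 of 24 on day 3, led by the conjugating enzyme gene Ube2d3 at 1187, Sumo2 at 862 and the activating enzyme gene Uba1 at 702. Of these 7, Ube2d3, Sumo2, Uba1 and Ube2e2, or 4, come from the normalization probe sets printed on both designs. Lysosomal and protease genes had 8 of 30 among the 300 on day 1, with the protease inhibitor gene Cst3 at 2461, Laptm4a at 1709 and the proton pump gene Atp6v0c at 1631, and 1 of 3 on day 3, Atp6ap2 at 751.

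Chaperone genes had 5 of 35 among the 300 on day 1, against 2.88% of all named genes, and 3 of 6 on day 3, against 5.29%. Hsp90ab1 had 1880, the endoplasmic reticulum chaperone gene Hspa5 1172 and Ppib 1035 on day 1, and the chaperonin genes Cct5 and Cct8 had 452 and 347 and Fkbp2 340 on day 3. The other day 3 probe sets of Cct5 and Fkbp2 read 27.6 and 46.6. With the mean of probe sets the list's day 3 share of the 300 fell from 1% to 0.333%. Translation factor genes had 7 of 58 on day 1 and 4 of 24 on day 3, with Eif4a2 at 1346 and Naca at 1194 after Eef1a1 on day 1, and Eif4h at 859, Eif4g2 at 521 and Eif4a3 at 369 on day 3. Eif4h and Eif4a3 come from the normalization probe sets. Another day 3 probe set of Eif4g2 read 1275 but carries a pseudogene's symbol as well, and so was left out of the ranking.

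Antioxidant genes held 9 places on day 1, with a median percentile of 85.2 over 45 genes. Superoxide dismutase, encoded by Sod1, had 2086, thioredoxin, encoded by Txn1, 1653 and the glutathione transferase gene Gsta1 1581. On day 3 none of 3 was among the 300, with Hmox2 at 64.2, Gpx4 at 11.8 and Gstt2 at 7.73. Gpx4 had 1390 in rank 134 on day 1, by a different probe set. Metal-binding genes held 2 of 10 places on day 1, the metallothionein gene Mt2A at 1624 and the copper protein gene Cp at 964, and the transferrin receptor gene Tfrc had 532. Cytoskeletal genes had 6 of 38 among the 300, with the actin gene Actg1 at 2793, the thymosin gene Tmsb4x at 1730 and Actn1 at 1633. The tropomyosin gene Tpm3, at 366, was the only one of 7 on day 3, where Tpm1 had 78.1 and Cnn3 19.9.

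Lipid binding and transport genes held 6 of 24 places on day 1, including Ptgds, Apod and Apoe, and 0 of 3 on day 3, where Pltp led at 84.0. In the list of the insulin-like growth factor axis, the binding protein genes Igfbp2 at 3068 and Igfbp7 at 1016 were among the 300 and Igf1 had 439. The receptor gene Igf1r had 367 on day 3, in rank 121. The interferon and antigen presentation list had 3 of 46 genes among the 300 on day 1, or 6.52%, against 2.88% of all named genes. These were B2m at 1856, Ifi27 at 1107 and Ifitm3 at 942. The list's median percentile was 44.6, and on day 3 the highest of 12 were Irf9 at 77.0, the chemokine gene Cxcl11 at 55.7 and Isg15 at 54.5. Complement genes other than Clu were led by the membrane regulator gene Cd59b at 412 and the inhibitor gene Serping1 at 332 on day 1, and by C2, an early component, at 189 on day 3.

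Genes of the early response to stimuli held 3 of 38 places on day 1, the kinase gene Sgk1 at 1243, Btg1 at 939 and Txnip at 807. On day 3 Jund, a transcription factor gene, had 414 in rank 101. These animals had been operated on 1 or 3 days before, and the part of the surgery in these signals was not tested.

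Of the matrix genes, 0 of 29 collagen genes were among the 300 on day 1, a count near the 2.88% of all named genes. The highest were Col9a2 at 673 and Col9a1 at 642, chains of type IX collagen, and Col1a2, a chain of type I collagen, at 622. Col2a1, which encodes the type II collagen with which type IX associates, had 167. On day 3, 2 of 13 were among the 300, Col9a3 at 1166 and Col11a1 at 358. All 3 chains of type IX collagen, on separate designs, lay at percentiles 96.3, 96.1 and 99.7.

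Among the other matrix genes 6 of 60 were within the 300 on day 1. They were Sparcl1 at 2031 and Sparc at 1030, secreted calcium-binding glycoprotein genes, Ccn2 at 1544, a growth factor-like matrix gene, the metalloproteinase inhibitor genes Timp3 at 1003 and Timp2 at 888, and Mgp. Efemp2, an elastic fibre gene, had 244 on day 3 and was the only one of 8 there, with Vit at 189 and Thbs2 at 88.5 next.

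Genes outside the lists were grouped by hand after their values were seen, so these groups have no background share. On day 1 membrane traffic and small GTPase genes numbered 16 of the 300, from Cdc42 at 2375 down to Gabarap. Mitochondrial carriers and porins numbered 6, led by the phosphate carrier gene Slc25a3 at 2619. Annexin and calmodulin genes numbered 4, led by Anxa5 at 2646, and G protein, kinase and phosphatase genes 8, led by Gnas at 2324. Other probe sets of Gnas read 45.6 and 9.70. On day 3 membrane traffic genes numbered 29, led by Arf1, chromatin and transcription genes 28, led by Morf4l1 at 1508, and RNA processing genes 18, led by Nop10. Arf1, Nop10 and other members of these groups come from the normalization probe sets. Those supplied 57 of the 300 on day 3 and 5 on day 1, so the group sizes cannot be compared between days. Solute carriers and channels outside the lists numbered 11, among them the copper transporter gene Atp7a at 302 and the potassium channel gene Kcna2 at 324.

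By cell type, the fibrocyte list stood highest in both arrays. This list holds the markers above and was chosen with earlier results known, so its place is a description. Some of its genes are not limited to fibrocytes, and the source of these signals was not tested. On day 1, 6 of its 13 genes were among the 300 and its median percentile was 95.8. On day 3, 6 of 9 were, with a median of 97.8. Besides the markers above, the calcium-binding protein gene S100a1 had 2303 and the carbonic anhydrase gene Car3 889 on day 1. Car2, another carbonic anhydrase gene, had 611 in rank 437 and Aqp1, a water channel gene, 144. The transcription factor gene Pou3f4, a deafness gene whose product is needed in the ligament, had 140 in rank 2768, and Tnn, a tenascin gene, 2.06, below background. On day 3 the caveolin gene Cav1 had 393, the norrin gene Ndp 359 and the transcription factor gene Tbx18 351. The remaining members there were dimmer, with Ucma at 31.7, Car3 at 16.8 and Tbx15 at 12.6, close to the background of 10.4. General fibroblast genes were less prominent, with 1 of 17 among the 300 on day 1 (Gsn, an actin-severing protein gene, at 1210) and a median percentile of 74.5, and the growth factor receptor gene Pdgfra had 479 and the proteoglycan gene Dcn 192.

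Stria genes are given because one label field describes the tissue as taken without the stria. On day 1, 3 of 13 were among the 300 and the median percentile was 77.7. Above background were 11 of 13, near the 83.6% of all named genes. Cldn11, the tight junction gene of basal cells, had 1767 in rank 78, although its other probe set read 143. Slco1c1, a thyroid hormone transporter gene, had 1438 and Kcne1, a subunit of the marginal cell potassium channel, 1006 in rank 213. Kcnq1, the pore subunit of that channel, had 157, the endocytic receptor gene Lrp2 688 and Esrrb, a nuclear receptor gene, 471. Kcnj10, the potassium channel gene of intermediate cells, lay at 11.6, next to the background of 11.0. The 3 stria genes on the day 3 design were Atp1b2 at 2881, Atp13a5 at 208 and Bsnd, a chloride channel subunit gene, at 44.6. On day 1 Atp1b2 had 168 by a different probe set. Some listed genes are also used outside the stria, and the share of stria in the tissue was not tested.

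Pigment cell genes had 1 of 5 among the 300 on day 1 and 2 of 5 on day 3. All 5 lay above background on each design, as did 83.6% and 77.6% of all named genes. Gpnmb, a glycoprotein gene of melanosomes that macrophages and bone cells also use, had 1655 on day 1, Mlana 295 and the transcription factor gene Mitf 165. Kit, a receptor gene of pigment cells, had 13.98, close to the background of 11.0. On day 3 Pmel, which encodes the fibril protein of melanosomes, had 631 in rank 48 and Tyr, which encodes the pigment enzyme tyrosinase, 381 in rank 112. Mitf had 64.6 there. Tyrp1, a relative of Tyr, had 13.1, close to the background of 10.4.

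**Figure D3:**
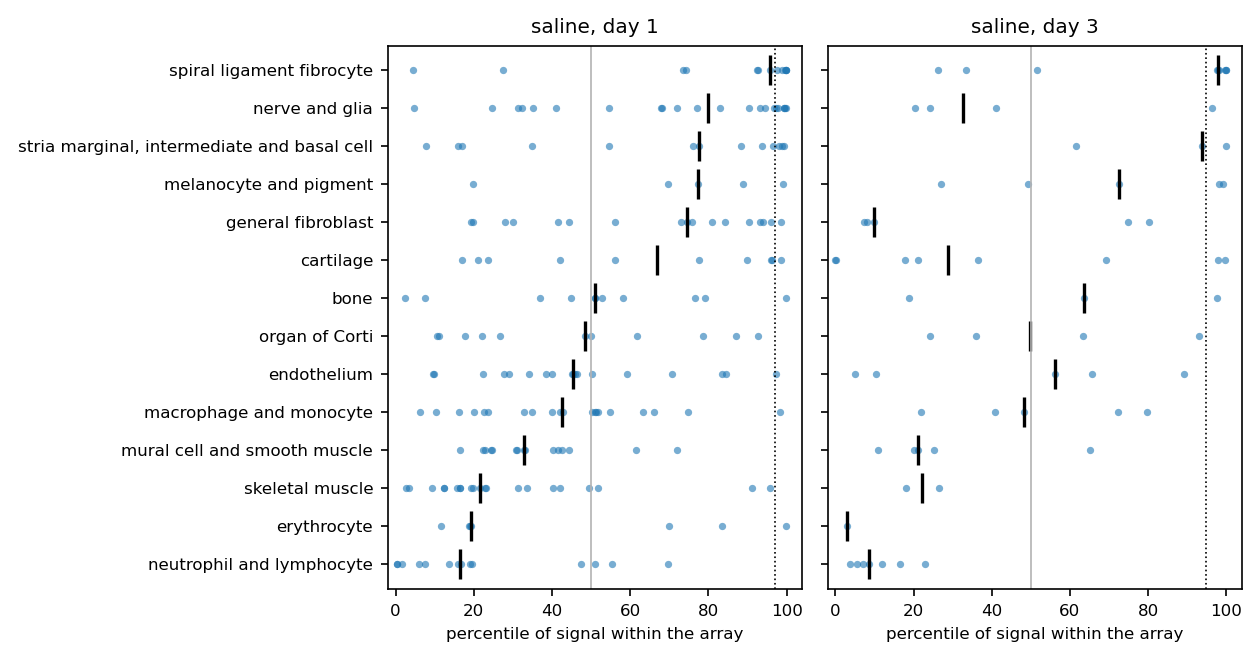
Percentile of signal within the array (100 is the highest) for each member of the 14 cell type lists on the saline day 1 and day 3 arrays. Bars are list medians, the grey line is the median of all genes and the dotted line rank 300. The fibrocyte list has the highest median in both arrays, at 95.8 and 97.8, and neutrophil and lymphocyte genes have 16.4 and 8.58.

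Nerve and glia genes stood next to the fibrocytes on day 1, with 6 of 22 among the 300 and a median percentile of 80.0. After S100b came Nefh, the heavy neurofilament gene, at 2228 in rank 48 and Sncg, which encodes gamma-synuclein, at 2114 in rank 59. Pmp22 and Mbp, myelin genes, had 1751 and 921, and the synaptic gene Snap25 had 834. The calcium-binding protein gene Calb2 had 748 and the neurofilament genes Nefm and Nefl 515 and 435. Other neuronal genes ranged widely, with Thy1 at 163, Uchl1 at 132 and Stmn2 at 116, but Tubb3 at 42.4, Prph at 28.4 and Gap43 at 2.16. On day 3, where the design holds 4 genes of the list, Mbp had 282 in rank 203, the synaptic gene Syt1 22.2, and Pmp2 11.4. S100b, Pmp22 and Snap25 are not limited to nerve, and the source of these signals was not tested.

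Genes of the organ of Corti, the sensory epithelium beside the lateral wall, lay near the middle of the day 1 array, with a median percentile of 48.6. Among the 300 were 0 of 11, and 9 of 11 were above background, both near the shares of all named genes. Ocm, which encodes the calcium-binding protein oncomodulin of outer hair cells, had 416 in rank 749, and Myo6, a myosin gene of hair cells and other cells, 266. Slc26a5, which encodes the outer hair cell motor prestin, was below background at 6.94, and Ush1c had 174. On day 3 Fgfr3, a receptor gene of supporting cells and of cartilage, had 194 in rank 402, Sox2 47.3 and Prox1 18.4.

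Bone genes had 1 of 11 among the 300 on day 1, Spp1, and a median percentile of 51.0. The osteocalcin gene Bglap had 178 and the proteoglycan gene Omd 159, the bone sialoprotein gene Ibsp 64.1, and Alpl, which encodes the phosphatase of mineralising cells, 3.76, below background. On day 3 Dmp1, an osteocyte matrix gene, had 352 in rank 133, Col24a1 47.6 and Sost, another osteocyte gene, 8.34, below background. Cartilage genes had 1 of 10 among the 300 on day 1, Cnmd, which encodes chondromodulin, at 1294. Acan, the aggrecan gene, had 76.8. On day 3 Sox9, Matn1, Matn3 and Hapln1 were below background at 9.63 to 0.182, beside Col9a3 and Col11a1 near the top and Col2a1 at 57.5.

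Vessel genes lay near or below the middle of the day 1 array. Of 18 endothelial genes 1 was among the 300, or 5.56%, against 2.88% of all named genes. It was Slco1a4, an organic anion transporter gene of brain and other vessels, at 838. Cldn5, the tight junction gene of endothelium, had 230 and Emcn 218, while Pecam1 had 24.1. The median percentile of the list was 45.3. None of 15 mural and smooth muscle genes was among the 300, with Myl9 at 132, the pericyte gene Rgs5 at 92.7 and Notch3 at 49.7 highest and Acta2, smooth muscle actin, at 26.8. Kdr, a defining endothelial gene, had 51.4 on day 1, above background. On day 3 the angiopoietin receptor gene Tek had 144, Sox17 50.7 and Sox18 37.2, and Kdr was below background at 1.80 by a different probe set. Pdgfrb, the receptor gene of pericytes, had 49.7 there, Myh11 12.01 and Des 9.59.

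Blood and immune genes were uneven. Hbb was in rank 14 on day 1 by its only probe set, of the kind ending in _x_at or _s_at. The alpha-globin gene Hba-a3 had 217 and Alas2, a haem synthesis gene of red cells, 123, but 4 other red cell genes lay between 13.5 and 7.25. Epb42, the only red cell gene on the day 3 design, was below background at 1.30. Macrophage genes had 1 of 20 among the 300 on day 1, or 5%, against 2.88% of all named genes. It was the lysozyme gene Lyz2 at 1183, and the list's median percentile was 42.5. The Fc receptor gene Fcer1g had 149, Ctss 108 and Cd68 40.8. The highest on day 3 were Laptm5 at 86.5, the scavenger receptor gene Mrc1 at 63.5 and Cybb at 28.2.

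Neutrophil and lymphocyte genes were among the dimmest, with 7 of 14 above background on day 1 and 1 of 7 on day 3. Their highest signals were those of Lcn2 at 122, S100a9 at 74.6 and S100a8 at 64.2 on day 1 and Cd8a at 10.7, Jchain at 6.99 and Ms4a1 at 4.26 on day 3.

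Skeletal muscle genes had a median percentile of 21.7 on day 1. Acta1, skeletal muscle actin and a defining gene of the list, was below background at 1.33, but Pvalb, a calcium-binding protein gene also found in neurons, had 602 and the myosin gene Myh1 358. Mybpc1 followed at 66.6. On day 3 Tnnt3 had 12.6 and Neb 7.85. In these bulk samples fewer cells of a type and less RNA per cell cannot be told apart.

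The 100 normalization probe sets are the only features outside the controls that both designs measure alike. Across them the log2 signals of day 1 and day 3 had a Pearson correlation of 0.976 and a Spearman correlation of 0.975. Day 3 was higher for 95 of 100, by a median log2 difference of 0.41 with an SD of 0.26. Cnot7, a subunit gene of the mRNA deadenylase complex, had 33.6 on day 1 and 89.2 on day 3 and was the only one at least 2-fold from that median difference. It was named after its value was seen. Day, animals, design and scaling differ together between these arrays, and their parts cannot be told apart. The set was selected by the manufacturer for normalization, so its spread does not describe other genes.

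**Figure D4:**
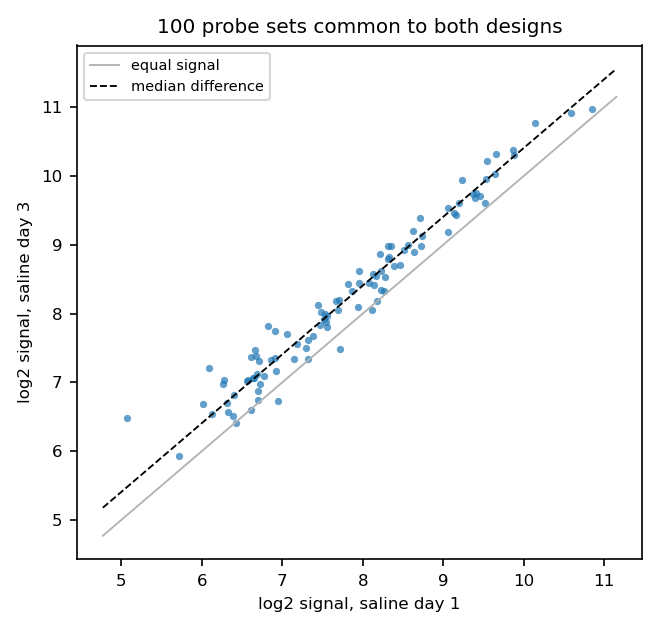
Log2 signal on the saline day 3 array against the saline day 1 array for the 100 probe sets on both designs (1 point each). The dashed line is the median difference of 0.41 above the grey line of equal signal, and the points follow it with an SD of 0.26.

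Another 2183 genes had different probe sets on the day 1 and day 3 designs. Their percentiles had a Spearman correlation of 0.263 across genes, which share the tissue but neither probe set nor array, and 342 lay more than 50 percentile points apart. Of these genes 35 were among the 300 highest on day 1 and 103 on day 3, and 10 were among both, which is 28.6% of the former and 9.71% of the latter. The 28.6% stands beside 103 of all 2183 genes, and the 9.71% beside 35 of 2183. The highest by their lower percentile were Ppp1r1a, App (3427 and 752), Sorl1 (1280 and 1386), Morf4l1 (1205 and 1508) and the ubiquitin ligase gene Nedd4 (1633 and 428). The others were Fam107a, Uqcrc2, Ccni, Mbp and Clmp. Ppp1r1a and Mbp are the members of the cell type lists that stood in both.

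The widest gaps were those of the ubiquitin ligase subunit gene Rnf7, with 450 on day 1 and 0.320 on day 3, and of Irx1, a homeobox gene, with 0.918 and 219. Dclk1, Rere and Sucla2 had 420, 498 and 568 on day 1 and 0.514, 1.00 and 1.55 on day 3. Among list members Col11a1 had 17.7 and 358, Car3 889 and 16.8, and Atp1b2 168 and 2881, all by different probe sets. Each pair has 1 signal near the top and, for Col11a1 and Car3, 1 in the lower part of its array.

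**Figure D5:**
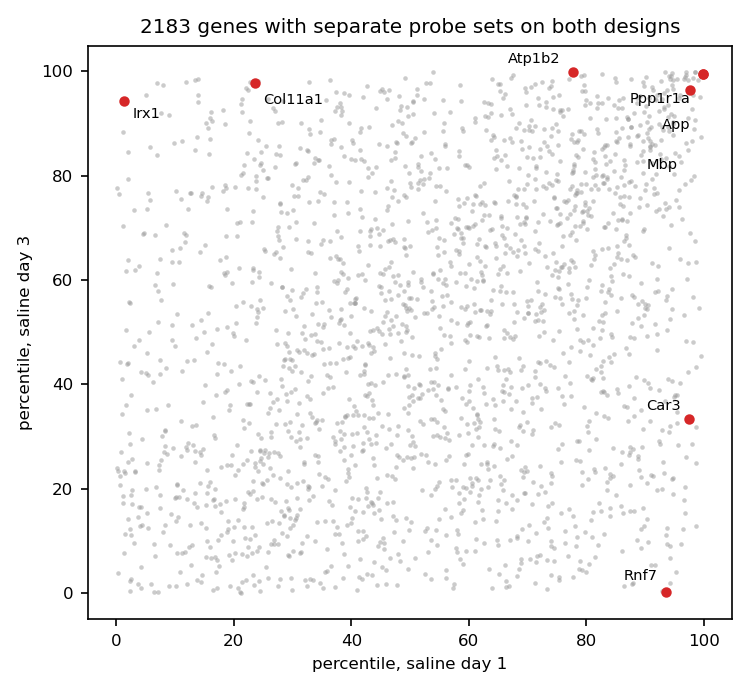
Percentile on the saline day 3 array against that on the saline day 1 array for 2183 genes with separate probe sets on each design (grey), with named examples in red. The points fill most of the square (Spearman correlation 0.263), and Ppp1r1a, App and Mbp lie in the upper right corner.

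The lists of highest genes were largely shared with the 3-NP array of the same design. At day 1, 220 of the 300 genes, or 73.3%, were also among the 300 highest of that array, and at day 3 it was 209, or 69.7%. None fell below percentile 65.5 there at day 1 or 66.1 at day 3.

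Promoter motifs were counted in the highest genes and in all named genes of the same array, as a description. The letters TATAAA, on either strand of a window from 250 bases before to 50 after the start, stood in 35 of 250 matched promoters of the 300, or 14%, against 8.70% of 8610. On day 3 the shares were 8.03% of 249 and 6.85% of 4643. Over all 33465 windows in the table the share was 14.2%, so the promoters of all named genes on the day 1 array lie below it. The GC box GGGCGG stood in 61.6% of the promoters of the highest genes on day 1 and 67.1% on day 3, against 59.6% and 58.3% of those of all named genes. CCAAT stood in 32.8% and 37.3%, against 37.6% and 36.8%. TTCCGG, a core of binding sites of ETS factors, stood in 28 of 71 promoters of oxidative phosphorylation genes (39.4%) and 13 of 37 of ribosomal protein genes (35.1%), against 24.9% of all on the day 1 array. In no fibrocyte gene of 8 on that array was it found in this window. GGGCGG and TTCCGG stood in 33.1% and 15% of all windows in the table and CCAAT in 37.5%. These shares have no test, and such a match is a run of letters, not a measured site.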

How the data were processed

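Each array was deposited as 1 linear signal intensity for every probe set. The submitters' processing notes name MAS5, and no scaling target is stated there. Per the labels' protocols, 6 µg of total RNA went into biotin-labelled cRNA. Symbols came from the platform annotation and were updated by gene identifier to RefSeq of GRCr8. A single symbol was found for 12783 of 15866 non-control probe sets on day 1, several for 312 and none for 2771. On day 3 the numbers were 7564, 100 and 7612 of 15276.

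A gene was its brightest probe set. Ranks, percentiles and shares used pandas 2.3.3 and Python 3.11.15 and were tested on simulated arrays. Named genes were the 20 highest per array, the 5 tissue markers, the 3 highest per list, defining markers at background, 3 genes on either side of rank 300, the 5 highest probe sets with no symbol, and for genes on both designs the 5 highest and the 5 widest gaps. Further genes were named after their values were seen. Members and lists were chosen with earlier results of these data known. The patterns of 2 lists were corrected once the matched names were seen, to leave out ribosomal protein kinases and to add mitochondrially encoded genes. Alternatives were the mean of a gene's probe sets, no probe sets ending in _x_at or _s_at, platform symbols, the 200 or 500 highest genes, other background levels and filters on dim probe sets. With 1 array per group the number of arrays limits the precision.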

Additional observations from a re-analysis of the deposited data

Results flagged for a closer look

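Probe sets with no gene symbol were left out of the ranking, yet some were as bright as the 300 highest genes and far above the bacterial controls. On the saline day 1 array 34 of 2771 such probe sets reached the signal of the 300th gene, and the highest, 1375651_at, had 6040, rank 5 among all probe sets outside the controls. The next were 1388159_at at 4963, 1375340_at at 4421, 1386852_x_at at 4365 and 1367645_at at 3002. On the saline day 3 array 119 of 7612 reached that level. The highest was 1383394_at with 2254 in rank 7, followed by 1393777_at at 1070, 1382291_at at 1058, 1379294_at at 1050 and 1383697_at at 932. On day 1 another 61 probe sets with several symbols, and 5 on day 3, also reached it, so the 300 named genes are not the 300 brightest transcripts.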

How the results depend on the processing

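No paired analysis was possible because each group holds 1 array and no result comes from a test. Of 332 shares of the highest genes held by a list, 284 stayed within 1.5 times the reported share under the alternatives run and 48 did not. A list with no gene among the highest in either setting counts as staying, so the 284 do not measure stability. With the 500 highest genes in place of 300, the day 1 shares of ribosomal protein genes (12%) and ion transport genes (3.33%) were 7.6% and 2.2%, and the day 3 shares of fibrocyte genes (2%) and ion transport genes (1%) were 1.2% and 0.6%. Of the 44 ribosomal protein genes on the day 1 array 36 were already among the 300. On day 3 the next fibrocyte gene below the 300 was Ucma in rank 2746. The next ion transport gene there was Gjc1 in rank 1577, so neither list gained a gene between ranks 300 and 500. For the other shares the cause was not tested. Without COX1 and COX2, an alternative chosen after seeing the data, oxidative phosphorylation genes held 12.3% on day 1. Of 127 percentiles of named genes 126 moved by less than the SD between probe sets of a gene, and Apoe came to percentile 53.5 with the mean of its probe sets. The SD of percentile within a gene is wide, at 22.6 points on day 1 and 24.2 on day 3. A gene with 1 probe set can hardly move when probe sets are averaged, so the count of 126 does not measure stability. Of the cell type genes on the day 1 array 86.3% were above the bacterial controls, near the 83.6% of all named genes. Above the array's median were 55.3%, which is given without the share of all named genes. The SD of log2 signal within a gene on day 3, 1.75, was 1.16 over probe sets above background. Signals near 11.0 on day 1 and 10.4 on day 3 have no reliable order.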
